A study of Mus musculus with 57 samples.

Results

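The 300 largest domains of H3K27 acetylation (H3K27ac) in unstimulated wild-type mouse epiblast stem cells (EpiSCs) were described across cultured cells and embryos. Peaks of the wild-type 0 h H3K27ac list that lay within 12500 bp of each other were joined into domains, the lengths of the peaks in each domain were summed, and the domains with the largest sums were taken, with ties broken by position. This gave 300 of 9441 domains. They were 3.18% of the domains and held 10.9% of the H3K27ac peak length of that list. The members were therefore chosen by their length in 1 library, and every comparison with that library is given as a description with no test.

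H3K27ac is placed on histone H3 by the acetyltransferases p300 and CBP and marks active promoters and enhancers. Clusters of acetylated elements that lie close together, often called super-enhancers, are known for lying near genes that set cell identity, and in pluripotent cells these include the genes of the factors OCT4, SOX2 and NANOG. EpiSCs are lines taken from the epiblast of the embryo before gastrulation, and they keep the primed form of pluripotency under FGF and Activin. Wnt signalling drives such cells toward primitive streak and mesoderm.

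H3K27ac was mapped in wild-type EpiSCs after 24 h of CHIR99021 (2 libraries), in Wnt3KO EpiSCs, which lack the Wnt3 gene, at 0, 6, 12 and 72 h (1 library each), and in wild-type EpiSCs at 0 h (1 library). Open chromatin was mapped by ATAC-seq in wild-type EpiSCs at 48 h and at 0 h (1 library each) and in wild-type embryos at E6.0 (2 libraries), E7.2 (2 libraries) and E7.5 (1 library of the posterior part). The labels do not say which tissues the E6.0 and E7.2 samples held. CHIR99021, named Chiron in the labels, inhibits GSK3 and so activates the Wnt pathway; it was given at 3 µM as IWP2 was withdrawn. All EpiSC lines came from E6.0 epiblast and had been grown with IWP2 (2 µM), a blocker of Wnt secretion, so Wnt secretion was blocked up to 0 h. The sources used here do not say whether the Wnt3KO cells were 1 clone. H3K4me3 (a promoter mark), H3K27me3 and Ring1b (Polycomb) libraries of Wnt3KO cells and 2 input libraries served as further readouts. Among them, 1 H3K27me3 and 1 Ring1b library came from Wnt3KO cells given Wnt3a protein (125 ng/mL) for 5 h in place of CHIR99021. Each file is a list of peaks in mm9 coordinates without read counts, so depth is unknown, and a value below is a length in bp covered by listed peaks, or the percentage of the domains' summed span that they cover. In bulk cells, fewer cells carrying a peak and a weaker peak in every cell cannot be told apart.

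The promoters of 3 pluripotency genes whose starts lay in member domains are shown because the values at these genes are followed below. They are RefSeq promoters of GRCm38.p6, 250 bases before to 50 bases after the start. Of 8 genes looked up, 5 had a promoter in that table. For Pou5f1 and for Nanog it held 2 promoters, and only the first listed of each was read. Capitals mark the octamer core bound by OCT4 (ATGCAAA, or TTTGCAT on the other strand), the core bound by SOX factors (ACAATG or CATTGT), the core bound by TCF/LEF factors at the end of the Wnt pathway (CTTTGA or TCAAAG) and the GC box core (GGGCGG or CCGCCC), with both strands searched.
Sox2 (chr3:34649745-34650044, plus strand): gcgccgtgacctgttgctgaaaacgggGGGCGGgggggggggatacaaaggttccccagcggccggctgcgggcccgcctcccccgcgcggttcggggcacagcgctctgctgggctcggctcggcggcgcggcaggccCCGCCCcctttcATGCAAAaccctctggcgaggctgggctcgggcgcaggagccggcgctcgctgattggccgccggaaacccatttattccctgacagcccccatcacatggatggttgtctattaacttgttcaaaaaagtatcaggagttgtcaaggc
Pou5f1 (chr17:35505782-35506081, plus strand): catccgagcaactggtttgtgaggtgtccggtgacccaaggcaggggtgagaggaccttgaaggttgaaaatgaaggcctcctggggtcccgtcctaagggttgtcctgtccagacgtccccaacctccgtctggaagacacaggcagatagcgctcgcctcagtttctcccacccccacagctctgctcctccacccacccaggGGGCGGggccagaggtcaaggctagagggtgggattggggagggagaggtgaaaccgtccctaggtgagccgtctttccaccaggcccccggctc
Nanog (chr6:122707239-122707538, plus strand): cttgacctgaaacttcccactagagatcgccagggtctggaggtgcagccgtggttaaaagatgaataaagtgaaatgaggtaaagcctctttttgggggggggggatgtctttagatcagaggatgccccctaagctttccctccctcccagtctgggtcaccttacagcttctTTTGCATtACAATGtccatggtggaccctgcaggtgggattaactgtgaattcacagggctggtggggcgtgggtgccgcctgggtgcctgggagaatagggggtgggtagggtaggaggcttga
The Sox2 promoter held 1 octamer core at position -99 and 2 GC box cores. The Nanog promoter held an octamer core at position -75 and a SOX core at position -67, with 1 base between them. The Pou5f1 promoter shown held 1 GC box core and no octamer or SOX core. The TCF/LEF core was in none of the 3. Over all 32851 promoters of the table, 4.63% held the octamer core, 12.6% the SOX core, 16.0% the TCF/LEF core and 35.7% the GC box core. A match is only a run of letters and shows no binding.

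The summed H3K27ac length of a member ran from 3078 to 9820 bp, with a median of 3684 bp. The last domain inside the threshold had 3078 bp and the first outside it 3074 bp, so the threshold cut a continuous range. Members spanned 3082 to 68292 bp (median 9826.5 bp) and held 1132 peaks, 3 in the median member. In 24 members a single peak made up the whole domain. The median fold enrichment of a peak, a value of the authors' peak caller, was 6.92 in members and 6.74 in the other domains. Of the peaks in members, 71.3% overlapped an H3K4me3 peak of Wnt3KO cells at 0 h, against 71.0% of the peaks in the other 9141 domains, so this share was close in both. Chromosome 7 held the highest count, 30 members among its 648 domains (4.63%), and chromosome 16 held 4 among 320 domains (1.25%). By share, chromosome 17 was close to chromosome 7, with 20 among 440 (4.55%).

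**Figure D1:**
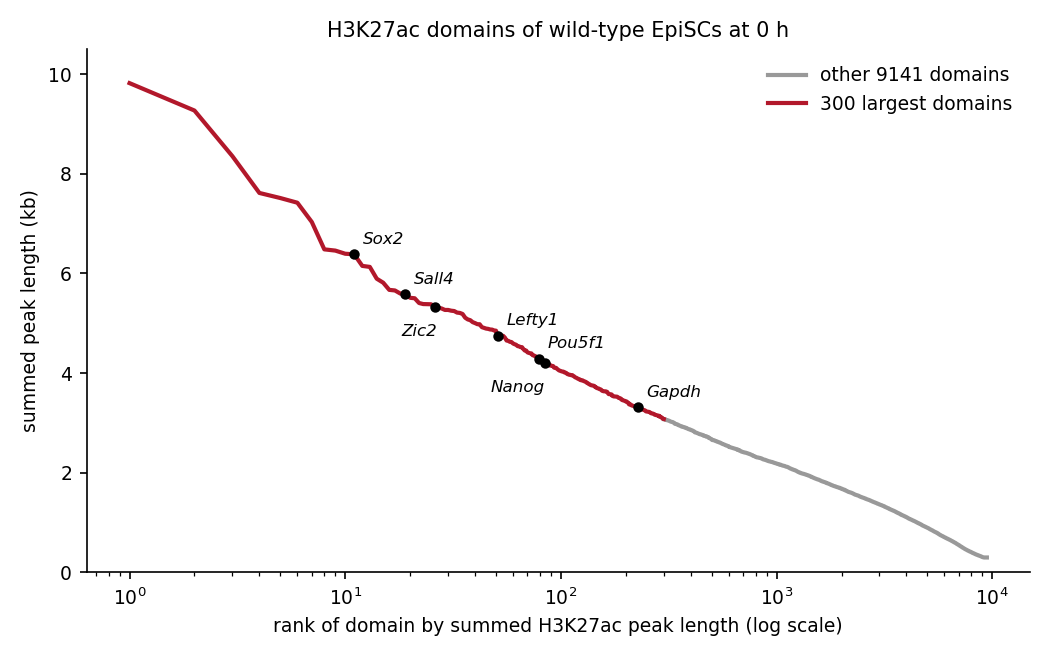
Summed H3K27ac peak length of every domain in wild-type EpiSCs at 0 h (kb, vertical axis) by rank (log scale). The red part is the 300 largest domains, from 9820 down to 3078 bp, points mark the members that hold a checked gene start, and the curve has no step at the threshold.

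Before other results, 15 of the 300 members (5%) overlapped a region listed in an input library, which has no antibody, against 0.591% of the other domains. The largest of these was rank 3 (chrX:166411761-166446857), where 21 input regions lay. The domain of rank 7 (chrY:2777406-2796981) had 13427 and 11946 bp at 24 h, against 7033 bp at 0 h, in wild-type H3K27ac lists, and no peak in any Wnt3KO or ATAC list. No Wnt3KO list held any region on chromosome Y, and the ATAC lists held 0 to 5. The part of the Y chromosome in these comparisons was not tested.

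Among the 10 largest domains, ranks 1 and 4 (chr13:23610332-23678623 and chr13:23831029-23856117) lay in the large histone gene cluster of that chromosome, as known from the mouse genome. Rank 1 had 17742 and 16995 bp in wild-type cells at 24 h, against 9820 bp at 0 h. In Wnt3KO cells it had 2949, 600, 1997 and 2419 bp at 0, 6, 12 and 72 h. H3K4me3 at rank 1 was likewise short at 6 and 12 h, with 8891, 3647, 3860 and 10409 bp at 0, 6, 12 and 72 h. Wnt3KO lists of these 2 marks at 6 and 12 h belonged to one processing folder and those at 0 and 72 h to another. Time and folder cannot be told apart between these sets, here and at every domain below.

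Rank 10 (chr18:75519354-75535258), which held the start of Smad7, an inhibitor of TGF-beta signalling, had 3053 and 3296 bp at 24 h, against 6396 bp at 0 h. It had 1555, 0, 0 and 2517 bp in Wnt3KO cells at 0, 6, 12 and 72 h. Smad7 was added after the values were seen, with its start placed from knowledge of mm9.

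After 24 h of CHIR99021, H3K27ac peaks covered 36.5% and 35.2% of the summed span of the members (35.8% ± 0.926, SD, n = 2), against 33.7% in the 1 wild-type library at 0 h. The difference of 2.16 percentage points was 1.13 points in the next 300 domains by rank and -2.06 points in the other 9141 domains, which include them. The 0 h list belonged to another processing folder than the 24 h lists, so time and folder cannot be told apart. This holds for every wild-type H3K27ac comparison of 24 h with 0 h given here. The direction for the members was not stable. It was -0.926 points with lists of equal length and -0.918 points with joining within 5000 bp. The median member had 1.05 times its 0 h length, against 1.00 times over all 9441 domains, and 182 of 300 members were longer at 24 h. Members at least doubled in both 24 h libraries numbered 3 of 300, against 0.837% of all domains tested, and 2 of the 285 members that overlap no input region. Members at least halved in both numbered 15 of 300, against 15.3% of all domains tested, a smaller share than the background. The rule picked long domains in the 0 h library, so nothing is read from these shares.

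Within members, the 24 h libraries covered 84.3% and 82.6% of the length of the 0 h peaks and 12.2% and 11.1% of the gaps between them. In the other domains they covered 83.0% and 81.5% of peaks and 17.7% and 16.8% of gaps. The 24 h lists were longer, with 29056 and 27422 regions, against 14453 at 0 h. Members held 4.76% and 4.95% of the H3K27ac length of the 24 h lists, against 10.9% of the 0 h list.

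Among the 5 members with the highest ratio of 24 h to 0 h length, rank 198 (chr4:124370142-124392596) had 7406 and 7488 bp at 24 h, against 3442 bp at 0 h. The start of Pou3f1, a POU factor of the anterior epiblast, lay 35.3 kb from it. In Wnt3KO cells rank 198 had 3060, 1733, 1052 and 1159 bp at 0, 6, 12 and 72 h, so each later length there was below that at 0 h. The domain of rank 3, which overlapped input regions, was also among these 5.

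The 5 members with the lowest ratio had no more than 436 bp in either 24 h library. Rank 149 (chr11:83044094-83048609) had no listed peak in either 24 h library, against 3692 bp at 0 h. Its ATAC length was 0 bp at 48 h, against 2053 bp at 0 h. Rank 172 (chr6:123595048-123599479) was also at 0 bp in both 24 h libraries, against 3570 bp at 0 h, and its ATAC length was 419 bp at 48 h, against 2191 bp at 0 h. None of the 5 had an H3K4me3 peak in any Wnt3KO list. Rank 149 had no ATAC peak in the E6.0 lists, and rank 172 had none in any embryo list, so these 2 domains were open in cultured EpiSCs and not listed as open at E6.0.

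**Figure D2:**
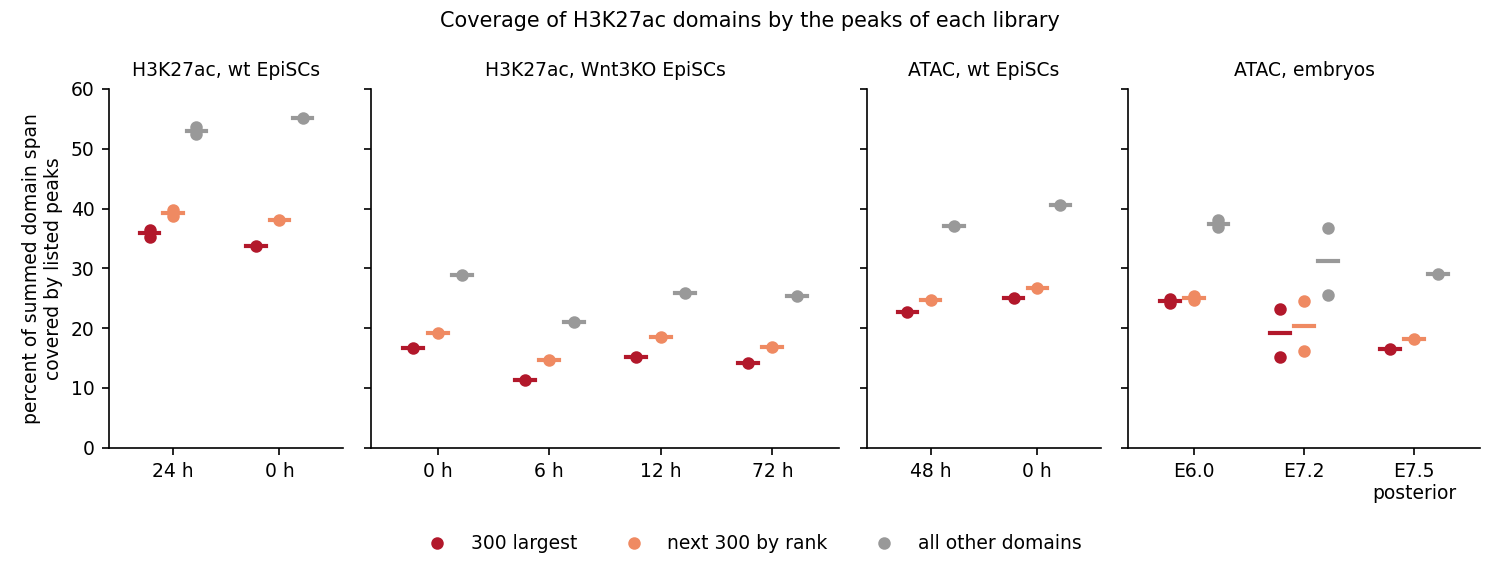
Percentage of summed domain span covered by listed peaks (vertical axis) for the 300 largest domains, the next 300 and all other domains. Each point is 1 library and each bar the mean of its group. In each library the members have the lowest percentage, from 11.3% in Wnt3KO cells at 6 h to 36.5% in a wild-type 24 h library. Joining leaves gaps in a span, and 8% of members were a single peak, against 65.0% of the other domains. The wild-type 0 h peaks that defined the domains covered 33.7% of the members' span and 55.1% of the others'. Nothing is read from this order.

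In Wnt3KO EpiSCs, H3K27ac peaks covered 16.6% of the members' span before CHIR99021, and 11.3%, 15.1% and 14.1% of it after 6, 12 and 72 h. Peaks were listed in 287, 278, 279 and 264 of the 300 members at these times, which is 95.7%, 92.7%, 93% and 88%, against 69.1%, 58.9%, 64.7% and 61.6% of the other, shorter domains. The difference between 72 h and 0 h was -2.58 points, or -15.5% of the 0 h value, beside -12.8% in the next 300 domains and -12.2% in the other domains. Both comparisons, of 72 h with 0 h and of 12 h with 6 h, lie within 1 processing folder. With 1 library per time there is no replicate check; the SD of the 24 h wild-type pair, the only H3K27ac replicates, was 0.926 points. The 12 h value was 3.79 points above that at 6 h, and the median member had 1.33 times its 6 h length, against 1.09 times over all domains with a 6 h peak. Members at least doubled at 12 h relative to 6 h numbered 45 of 278, against 9.77% of all domains tested, and members at least halved numbered 9, against 10.4%.

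Of the 287 members with a peak in Wnt3KO cells at 0 h, 54 were at least halved at 72 h, against 20.1% of all domains tested, and 4 were at least doubled, against 1.91%. These shares were near the background. Of the 54, 26 had no listed peak at 72 h. Relative to wild-type cells at 0 h, 145 of the 300 members were at least halved in Wnt3KO cells at 0 h, against 46.1% of all domains, and 0 were doubled, against 0.0212%. This contrast uses the library that chose the members, so nothing is read from it.

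The named members with the lowest 72 h to 0 h ratio, among the 148 with at least 2000 bp at 0 h, included the Sox2 domain and 4 domains with no listed peak at 72 h. Rank 18 (chr15:25682695-25704762) had 3922, 300, 644 and 0 bp of H3K27ac in Wnt3KO cells at 0, 6, 12 and 72 h. Its wild-type lengths were 4336 and 4218 bp at 24 h, against 5597 bp at 0 h. Rank 31 (chr2:161163407-161168659), a single peak without H3K4me3, had 3967, 363, 623 and 0 bp at the same Wnt3KO times. Its wild-type lengths were 4640 and 4670 bp at 24 h, against 5253 bp at 0 h. Both domains were thus listed as short in Wnt3KO cells at 6, 12 and 72 h and as long in wild-type cells at 24 h. The wild-type 24 h lists belonged to another processing folder than any Wnt3KO H3K27ac list, so genotype, time and folder cannot be told apart. Only the Wnt3KO lists of 0 and 72 h, or of 6 and 12 h, shared a folder. No wild-type library was taken at 72 h.

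The highest ratios were smaller in size. Rank 108 (chr4:133307050-133313658) had 2092, 675, 1848 and 3235 bp in Wnt3KO cells at 0, 6, 12 and 72 h, and 6354 and 5687 bp at 24 h, against 3977 bp at 0 h, in wild-type cells. Rank 20 (chr10:90632611-90651161) had 2733, 1435, 2541 and 4145 bp in Wnt3KO cells. All 5 of these members had H3K4me3, and their ratios ran from 1.37 to 1.55.

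**Figure D3:**
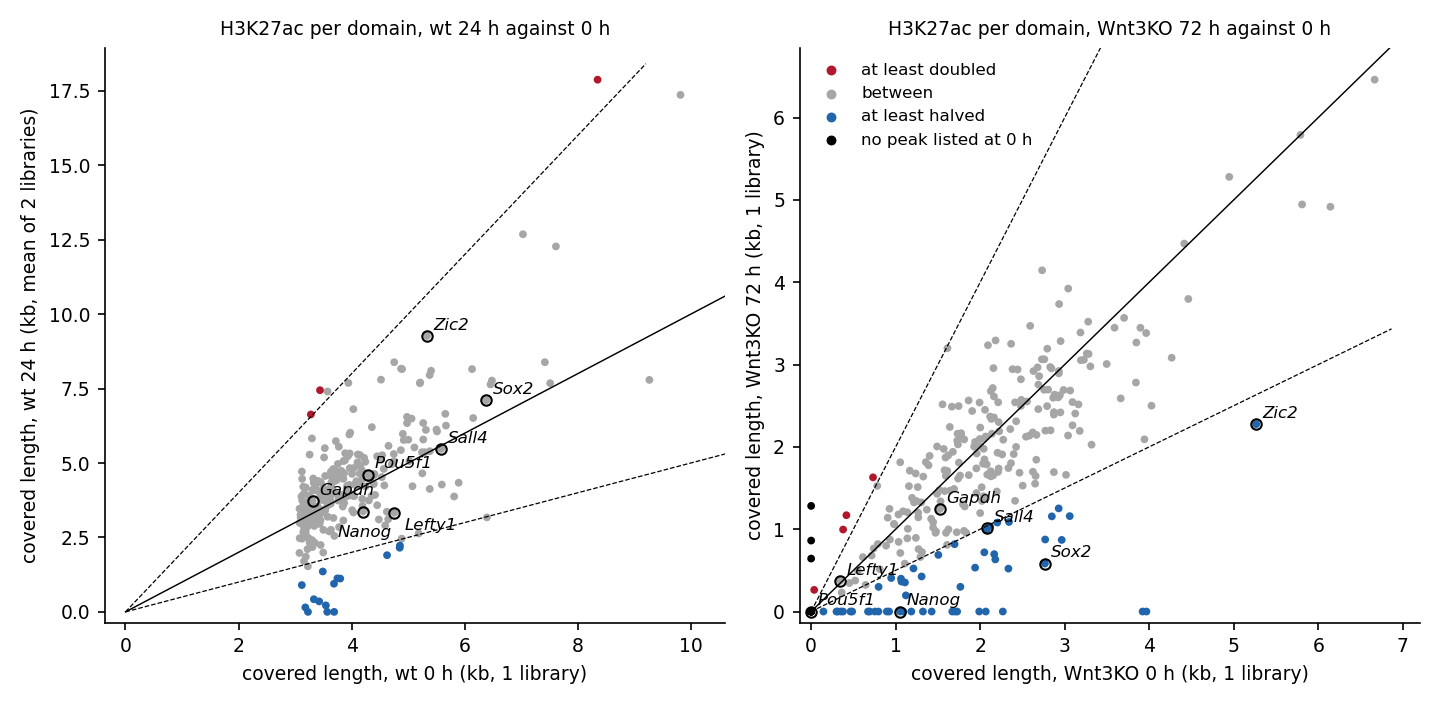
Covered H3K27ac length of each member (kb) in wild-type cells at 24 h against 0 h (left) and in Wnt3KO cells at 72 h against 0 h (right); the solid line is equality and dashed lines mark 2-fold differences. At 24 h 15 members are at least halved in both libraries and 3 at least doubled, and in Wnt3KO cells 54 are at least halved, Sox2, Sall4, Zic2 and Nanog among them, and 4 at least doubled.

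Open chromatin covered 22.7% of the members' span in wild-type EpiSCs after 48 h of CHIR99021, against 24.97% at 0 h. ATAC peaks were listed in 294 members (98%) at 48 h and 299 (99.7%) at 0 h, against 82.0% and 89.9% of the other domains. The difference was -2.31 points, beside -2.12 points in the next 300 domains and -3.59 points in the others. With 1 library per time there is no replicate check. The SD was 0.472 points in the E6.0 pair and 5.62 points in the E7.2 pair. The median member had 0.93 times its 0 h ATAC length, against 0.974 times over all domains tested. Members at least halved at 48 h numbered 23 of 299, against 12.9% of all domains tested, and 0 were doubled, against 0.681%. The 2 lists belonged to different processing folders, and time and folder cannot be told apart.

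Of the 23 members at least halved in ATAC length at 48 h, 10 were also among the 15 at least halved in H3K27ac at 24 h, which is 43.5% of the first list and 66.7% of the second. Over all domains the same overlap was 59.2% of 1102 and 45.2% of 1442, and the second list is set against the library that chose the members. In Wnt3KO cells 14 of the 23 were at least halved in H3K27ac at 72 h, 60.9% of the 23 and 25.9% of the 54. Over all domains this was 18.6% of 1102 and 15.4% of 1327, where only domains with a Wnt3KO peak at 0 h can be counted as halved. In embryos 16 of the 23 were at least halved at E7.5, 69.6% of the 23 and 30.8% of the 52 described below, beside 65.4% of 1102 and 42.6% of 1694 over all domains. No overlap was tested, and none is read as particular to the members.

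In embryos, ATAC peaks covered 24.1% and 24.8% of the members' span at E6.0, 15.2% and 23.1% at E7.2, then 16.5% in the posterior part at E7.5. E7.2 averaged 19.1% ± 5.62, against 24.5% ± 0.472 at E6.0 (SD, n = 2 each). The difference of -5.33 points had an exact two-sided permutation p of 0.333, which is the smallest that 2 against 2 libraries allow, so this design cannot reach 0.05. The E7.2 libraries lay far apart, and the first of them had 33881 regions, against 72433 in the second. Without the first E7.2 library the difference was -1.36 points, and without the second it was -9.30 points. Libraries of the 2 stages with the same replicate number shared a processing folder, and within these folders the difference was -8.97 points for the first pair and -1.69 points for the second. Members at least halved in both E7.2 libraries relative to both E6.0 libraries numbered 2 of 297, against 5.17% of all domains tested, and 0 were doubled, against 0.0238%.

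In the posterior part at E7.5, ATAC coverage of the members differed by -7.68 points from the E6.0 library of the same folder, or by -31.8% of its value, beside -26.4% in the next 300 domains and -21.2% in the others. Members at least halved relative to both E6.0 libraries numbered 52 of 297, against 20.2% of all domains tested, and 0 were doubled, against 0.238%. The median member had 0.687 times its E6.0 length, against 0.827 times over all domains tested. Stage and embryo part both differ between these groups, and they cannot be told apart.

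Peaks within members differed by whether H3K4me3 lay on them in Wnt3KO cells at 0 h. Of the 1132 peaks, 807 overlapped H3K4me3 and 325 did not; as background, active enhancers away from promoters usually carry little H3K4me3. In wild-type cells at 24 h, 70.5% and 64.6% of the 325 peaks without H3K4me3 were listed again, beside 97.9% and 97.6% of the 807 with it. In Wnt3KO cells 24.9%, 15.1%, 18.8% and 8% of the 325 were listed after 0, 6, 12 and 72 h. The 95% Wilson interval was 5.52% to 11.5% at 72 h, and 20.5% to 29.9% at 0 h, covering counting error only. Of the 807 with H3K4me3, 76.0%, 62.1%, 75.2% and 70.6% were listed at the same times. The split itself uses a Wnt3KO list, so peaks in any stretch that Wnt3KO lists lack count as without H3K4me3. The 7 peaks of rank 7 on chromosome Y were such peaks. Peak length was not compared between the classes, and its part was not tested.

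The same split in the other domains gave 3.39% at 72 h, against 14.7% at 0 h, for Wnt3KO H3K27ac at their 3865 peaks without H3K4me3, so the low 72 h share was found outside the members too. In wild-type cells at 24 h, 47.5% and 44.0% of those 3865 peaks were listed, beside 70.5% and 64.6% of the 325 in members. Longer peaks are more often overlapped, and the median peak length was 786 bp in members and 591 bp elsewhere; its part in this difference was not tested.

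ATAC peaks lay on 45.5% of the 325 peaks at 48 h, against 60% at 0 h, in wild-type EpiSCs. On the 807 peaks with H3K4me3 they lay on 90.7% at 48 h, against 93.2% at 0 h. In embryos the share of the 325 was 55.7% and 60.3% at E6.0, 36.9% and 54.2% at E7.2, then 28.9% in the posterior part at E7.5. The share of the 807 was 89.5% and 91.1% at E6.0, 81.4% and 90.5% at E7.2, then 81.0% at E7.5. Among whole domains, 275 members had H3K4me3 and 25 had none, of which 13 and 2 overlapped an input region. In those 25, H3K27ac of Wnt3KO cells covered 12.5%, 5.14%, 5.30% and 2.12% of the span at 0, 6, 12 and 72 h, with peaks listed in 5 of the 25 at 72 h. In the 275 it covered 16.8%, 11.6%, 15.6% and 14.6%.

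**Figure D4:**
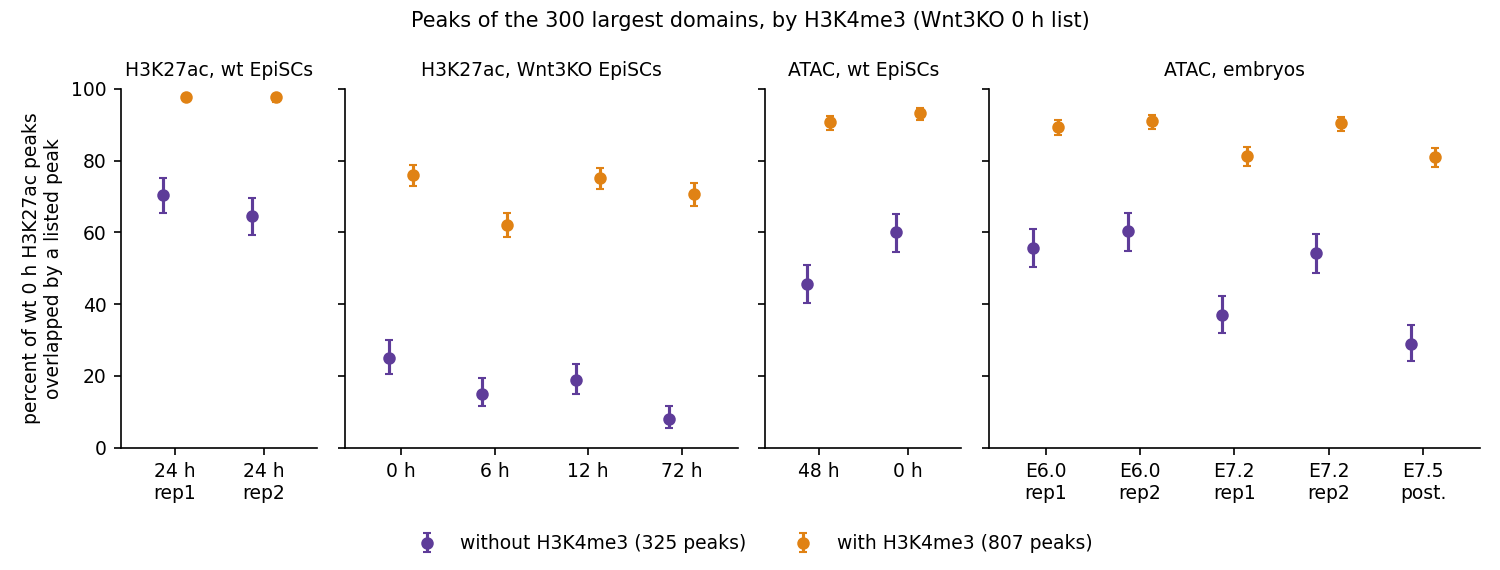
Percentage of wild-type 0 h H3K27ac peaks in the members that a peak of each other library overlaps (vertical axis). Peaks are split into the 325 without and the 807 with H3K4me3 in Wnt3KO cells at 0 h. Bars are 95% Wilson intervals that take peaks as independent and do not measure spread between libraries. The peaks without H3K4me3 are lower in every library, down to 8% in Wnt3KO cells at 72 h.

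When the 300 largest domains were taken anew from each list, 109 and 118 of the 300 wild-type 0 h domains overlapped one of the 24 h libraries' 300, which is 36.3% and 39.3%. The 24 h libraries shared 245 of their 300 with each other. Their lists had 29056 and 27422 regions and 1 processing folder, while the 0 h list had 14453 regions and another folder. With lists of equal length the mean share of the 0 h domains that overlapped was 45.3%, beside 37.8% with the full lists. The parts of time, folder and list length were not tested. Of the wild-type 0 h members, 137, 98, 127 and 117 overlapped the 300 largest of Wnt3KO cells at 0, 6, 12 and 72 h. In Wnt3KO cells, 164 of the 72 h list's 300 overlapped the 300 of 0 h, and 163 of the 0 h list's 300 overlapped those of 72 h. In all, 28 members were among the largest in all 6 other lists and 86 were in none. The smallest of the 300 had 5405 and 5036 bp in the 24 h lists, against 3078 bp in the 0 h list.

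Gene starts had been placed in mm9 from knowledge for 43 genes, and 38 with an H3K4me3 peak of Wnt3KO cells within 2000 bp were used. Of these, 7 lay in members. They were Sox2, Sall4, Zic2, Pou5f1 and Nanog of 16 primed pluripotency genes, Lefty1 of 2 Nodal pathway genes and Gapdh of 2 housekeeping genes. In domains of any size lay 14 of the 38, among them 8 of the 16 primed genes and 2 of the 11 Wnt response and mesoderm genes. The primed genes in no domain included Otx2, Fgf5, Pou3f1, Foxd3, Epcam and Cdh1. Neither naive gene lay in any domain. Among the Wnt response and mesoderm genes, the start of Tbx6 lay outside all domains and 10.0 kb from the member of rank 88. No member held any of the 11 Wnt response and mesoderm genes, the 2 naive pluripotency genes or the 5 genes of other cell types. Those 5 included Col1a1 and Thy1, markers of fibroblasts, on which the lines were once grown as feeders; neither lay in any domain, while Vim lay in a smaller one.

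Of the 6 such domains with an H3K27ac peak in Wnt3KO cells at 0 h, 4 (Sox2, Sall4, Zic2 and Nanog) were at least halved at 72 h, beside the background of 20.1% given above. Sox2 encodes the SOX factor that partners OCT4. The H3K27ac length of its domain (rank 11, chr3:34547036-34567680) was 7516 and 6702 bp in wild-type cells at 24 h, against 6385 bp at 0 h. In Wnt3KO cells it was 2766, 1060, 1934 and 583 bp at 0, 6, 12 and 72 h. ATAC peaks covered 5694 bp at 48 h, against 4706 bp at 0 h, so the domain was listed as more open at 48 h while its Wnt3KO H3K27ac was shortest at 72 h. In embryos ATAC covered 3742 and 4243 bp at E6.0, 2757 and 3969 bp at E7.2 and 3084 bp at E7.5. H3K4me3 covered 6433, 5504, 6338 and 5813 bp in Wnt3KO cells at 0, 6, 12 and 72 h.

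Pou5f1 encodes OCT4, and its domain (rank 79, chr17:35640384-35654624) had 5102 and 4128 bp of H3K27ac in wild-type cells at 24 h, against 4290 bp at 0 h. In Wnt3KO cells it had 0, 155, 300 and 0 bp at 0, 6, 12 and 72 h, although H3K4me3 covered 4499, 3526, 4007 and 1976 bp at these times. ATAC covered 1376 bp at 48 h, against 4217 bp at 0 h. It covered 4092 and 4368 bp at E6.0, 1365 and 1738 bp at E7.2 and 539 bp at E7.5, so both E7.2 libraries lay below both of E6.0. Within 500 bp of the start, whose promoter is shown above, ATAC peaks covered 0 bp at 48 h, against 911 bp at 0 h.

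Nanog encodes a homeodomain factor of pluripotency and of the posterior epiblast. Its domain (rank 84, chr6:122652223-122667084) had 3442 and 3302 bp at 24 h, against 4203 bp at 0 h, in wild-type cells. In Wnt3KO cells it had 1053, 1189, 967 and 0 bp at 0, 6, 12 and 72 h, and H3K4me3 covered 1800, 2077, 1555 and 429 bp. ATAC covered 822 bp at 48 h, against 2104 bp at 0 h. It covered 3025 and 2733 bp at E6.0, 918 and 2296 bp at E7.2 and 737 bp at E7.5. Within 500 bp of the Nanog start, ATAC peaks covered 0 bp at 48 h, against 489 bp at 0 h. In the same window at the starts of Sox2, whose promoter also held an octamer core, and Zic2 they covered 1000 bp at both times. At Sall4 they covered 1000 bp at 48 h, against 909 bp at 0 h, and at Gapdh 934 bp, against 1000 bp. At Lefty1 they covered 330 bp, against 703 bp, and at Utf1 0 bp, against 663 bp.

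Zic2 encodes a zinc finger factor of the primed epiblast. Its domain (rank 26, chr14:122862083-122879156) had 9673 and 8863 bp at 24 h, against 5334 bp at 0 h, the highest ratio of the 7. In Wnt3KO cells it had 5266, 626, 1772 and 2276 bp at 0, 6, 12 and 72 h. Its 0 h length was near that of wild-type cells and the later ones were lower. The lists of 6 and 12 h belonged to another processing folder than those of 0 and 72 h. ATAC covered 5548 bp at 48 h, against 5588 bp at 0 h. It covered 6253 and 6487 bp at E6.0, 3870 and 6395 bp at E7.2 and 5749 bp at E7.5.

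Sall4, a zinc finger factor of pluripotent cells, lay in rank 19 (chr2:168587620-168602533). That domain had 5697 and 5251 bp at 24 h, against 5586 bp at 0 h, and 2085, 833, 1461 and 1012 bp in Wnt3KO cells at 0, 6, 12 and 72 h. ATAC covered 2721 bp at 48 h, against 4058 bp at 0 h. Lefty1, a secreted inhibitor of Nodal, lay in rank 51 (chr1:182854156-182872551), with 3843 and 2810 bp at 24 h, against 4755 bp at 0 h, and 343, 490, 0 and 372 bp in Wnt3KO cells. ATAC at Lefty1 covered 1649 bp at 48 h, against 2716 bp at 0 h, and 1467 and 3753 bp at E6.0, 230 and 971 bp at E7.2 and 0 bp at E7.5. The 2 E6.0 libraries thus differed widely there.

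Gapdh, a glycolysis enzyme and a housekeeping gene, lay in rank 227 (chr6:125113876-125117870). It had 3731 and 3726 bp at 24 h, against 3311 bp at 0 h, and 1524, 605, 1409 and 1245 bp in Wnt3KO cells at 0, 6, 12 and 72 h. ATAC covered 2624 bp at 48 h, against 2757 bp at 0 h, and 1892 bp at E7.5, against 2396 and 2572 bp at E6.0.

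The start placed for Utf1, a chromatin factor of pluripotent cells, lay 0.199 kb outside rank 202 (chr7:147129900-147136874), which was singled out after its values were seen. That domain had 704 and 0 bp at 24 h, against 3427 bp at 0 h. It had no H3K27ac peak in any Wnt3KO list, while H3K4me3 covered 1697, 1656, 1706 and 996 bp at 0, 6, 12 and 72 h. H3K27me3 covered 0 and 1281 bp in the 0 h libraries and 734, 466 and 1611 bp at 6, 12 and 72 h. With Wnt3a, H3K27me3 covered 0 bp and Ring1b 523 bp, and Ring1b had 0 bp in its other libraries. ATAC covered 1102 bp at 48 h, against 2174 bp at 0 h.

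**Figure D5:**
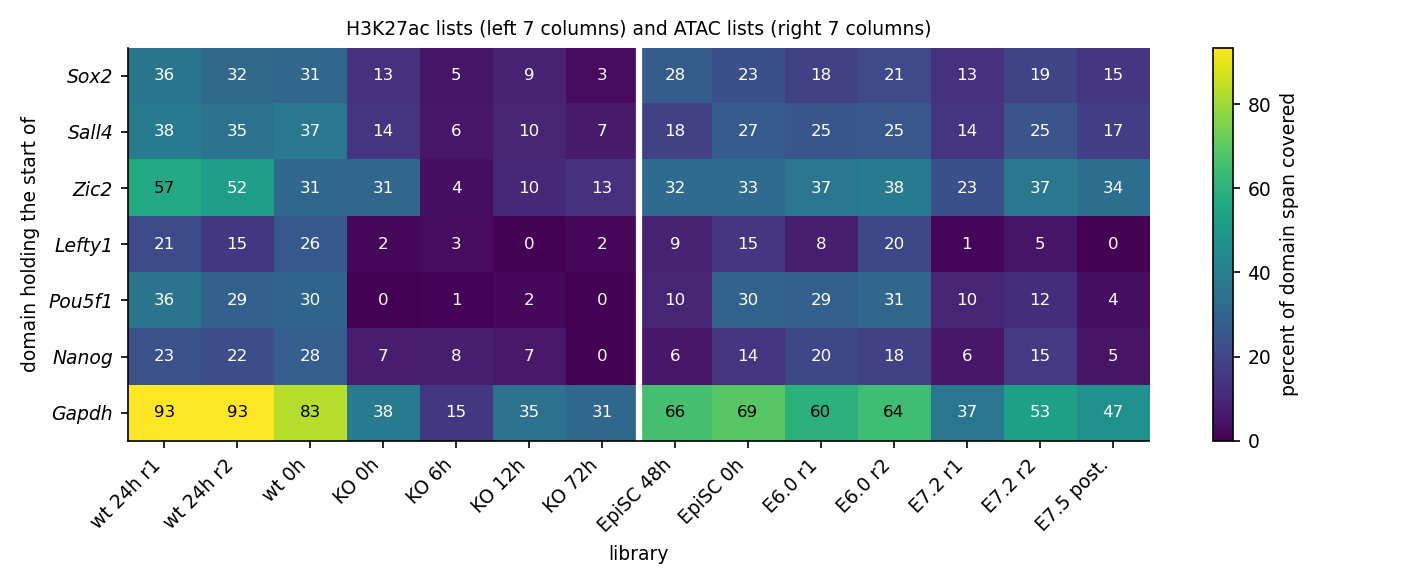
Percentage of the span of each of the 7 member domains with a checked gene start that is covered by the peaks of each library (numbers and colour), with H3K27ac lists on the left (KO is Wnt3KO) and ATAC lists on the right. Pou5f1 has 1376 bp of ATAC at 48 h, against 4217 bp at 0 h, and Zic2 has 5548 bp, against 5588 bp.

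H3K27me3 of Wnt3KO cells was listed in 5 to 12 members per library, which is 1.67% to 4% of them, against 0.263% to 0.635% of the other domains. Ring1b was listed in 8 to 19 members, or 2.67% to 6.33%, against 0.405% to 1.62% of the others. Without the domains that overlapped an input region, H3K27me3 was listed in 0 to 7 of 285 members (0 to 2.46%), against 0.022% to 0.407% of the others, and Ring1b in 2 to 14 (0.702% to 4.91%), against 0.165% to 1.39%. The median span was 9826.5 bp in members and 1046 bp in the other domains, and the part of span in these shares was not tested. By covered span, again without input regions, H3K27me3 took 0 to 0.144% of the members and 0.0135% to 0.239% of the others, and Ring1b took 0.0884% to 0.218% and 0.0672% to 0.239%.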

How the data were processed

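ChIP-seq, ATAC-seq and 4C-seq made up the 57 samples; 30 peak lists were used, 2 wild-type H3K4me3 lists with conflicting labels were not, and the other 25 samples were not analysed here. Per the submitters' processing notes, the build was mm9 and the tools included Bowtie 1.1.0 or Bowtie2 2.1.0, cutadapt 1.8.1, SAMtools 0.1.19 and MACS2 2.1.0; the sources used here give neither the tools of the wild-type 24 h H3K27ac lists nor the background library of any list. Per the file headers' layout (narrowPeak), the deposited fold values are the ratio over local background, the deposited −log10 p and q values come from the authors' peak caller, and the deposited score was not used. Peak names show 7 processing folders, treated as batches.

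Covered bp were computed with Python 3.11.15, numpy 2.4.6 and pandas 2.3.3 and tested on simulated lists. A domain counted as doubled or halved at a 2-fold difference beyond every library of both groups. The test was an exact two-sided permutation test (E7.2 and E6.0). Nothing says that replicates came from separate animals or cultures, so p measures only the spread between libraries. Named domains were the 10 largest, the 5 highest and 5 lowest ratios at 24 h and, with at least 2000 bp at 0 h, at 72 h, and those with a checked gene start; 1 of them is not reported here. Members, lists and rules were chosen with earlier results of these data known. Alternatives were a −log10 q of at least 5, lists of equal length, 150 or 600 domains, joining within 5000 bp, leaving out input regions or a library, an overlap of 50%, and the replicate number as a block.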

Additional observations from a re-analysis of the deposited data

How the results depend on the processing

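Of 52 values under alternatives, 44 kept their direction and moved by less than the replicate SD (or, for shares and the tested difference, kept within 1.5 times or kept their direction), 6 moved and 2 reversed; the causes were not tested except where named. The wild-type difference at 24 h relative to 0 h (2.16 points) was -0.926 with lists of equal length (10161 H3K27ac and 33881 ATAC peaks) and -0.918 with joining within 5000 bp, and it was 3.37 for the 150 largest domains. The Wnt3KO difference at 72 h relative to 0 h was -1.36 with lists of equal length and -4.34 with joining within 5000 bp, and that at 12 h relative to 6 h was 2.84 and 6.53. The ATAC difference at 48 h relative to 0 h was -4.48 with joining within 5000 bp, which rechooses the members with shorter spans. Its replicate SD was that of the E6.0 pair (0.472 points), the smaller of the ATAC pairs.

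Leaving out 1 library gave 1.50 to 2.81 points at 24 h, 36.3% to 39.3% of the domains shared with the 24 h lists, and -9.30 to -1.36 points for E7.2 relative to E6.0. With the replicate block the last difference was -5.33 points (exact sign-flip p = 0.5, the smallest that 2 pairs allow). The numbers were not taken as pairing in the main test. Deviations of same-numbered libraries correlated at -0.0061 over the members. A correlation over members leaves out any shift shared by a whole library, so it cannot decide whether the libraries were paired. The share of members at least halved at 72 h ran from 13.3% to 21.9%, beside 18.8% in the report. Depth is unknown, so an absent peak may have been missed.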
